A study of Mus musculus with 6 samples.

Results

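Matrix metalloproteinases and their tissue inhibitors, the TIMPs, were followed at the RNA level in 2 mouse cell lines. The set held 10 genes of the 34724 in the deposited table, taken by gene symbol, namely the 7 metalloproteinases Mmp2, Mmp3, Mmp9, Mmp10, Mmp13, Mmp14 and Mmp19 and the 3 inhibitors Timp1, Timp2 and Timp3. The lines were 2H-11, labelled tumor endothelial cells, and SVEC4-10, labelled normal endothelial cells, with 3 libraries each. Both were SV40-transformed lines from the axillary lymph node of adult C3H/HeJ mice, with no treatment, age in weeks or time point given. Tumor and normal stand for a single line each, and that label cannot be told apart from whatever else sets the lines apart. By the labels' protocol, RNA molecules were read directly on a nanopore instrument, without conversion to cDNA. The labels' description also carries the term Iso-Seq, and the protocol was followed here. Whether the 3 libraries of a line were grown as separate cultures is not stated, and p-values here cover the spread among these libraries, which may be technical.

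Metalloproteinases are zinc enzymes that cut collagens, gelatin, proteoglycans and other proteins of the matrix outside the cell. They are made as inactive proenzymes, are activated by removal of a propeptide, and are blocked by TIMPs, which bind the active site. In endothelium they are known for opening the basement membrane when vessels sprout, and the membrane-bound enzyme MMP14 together with TIMP2 activates pro-MMP2 at the cell surface. RNA counts measure none of these protein steps.

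Libraries held 3628400 to 16798666 counts, and the largest, SVEC4-10 replicate 3, was 4.63 times the smallest, SVEC4-10 replicate 2. Levels are given as counts scaled to each library's total (CPM), each value after ± is the SD of a line's libraries (n = 3), and replicates 1 to 3 are listed in that order. Where all 3 libraries of a line had no count, 3 counts over the line were taken as the limit, or 0.196 CPM in 2H-11 and 0.121 in SVEC4-10 (counting error alone). Markers that define endothelium were scarce in both lines. Of 14 listed, 11 were under 1 CPM in every library, 6 had no count in any (Tie1, Vwf, Erg, Cldn5, Emcn and Icam2), and the summed level was 13.6 to 22.0 CPM in 2H-11 and 4.21 to 6.19 CPM in SVEC4-10. The 2 that could be tested were both called higher in 2H-11. Eng was at 9.61 ± 2.60 CPM in 2H-11, against 2.46 ± 0.507 in SVEC4-10, and Egfl7 at 5.40 ± 1.35, against 0.787 ± 0.0745. The 7 mesothelial markers summed to 58.5 to 72.4 CPM in 2H-11 and 3397 to 4292 CPM in SVEC4-10, with Gpm6a and Lrrn4 at 0 in 2H-11, where only Krt19 of the list was called higher. The 11 fibroblast and mural markers summed to 1833 to 2347 CPM in 2H-11 and 2088 to 2195 CPM in SVEC4-10. Of 9 tested, 6 were called higher in 2H-11 and 1 lower, so near-equal sums hold members of both directions. Pdgfrb and Thy1 had no count in SVEC4-10, Lum and Rgs5 had none in either line, and Dcn stood at 13.8 ± 2.59 CPM in 2H-11, against 307 ± 52.4 in SVEC4-10. The 10 leukocyte markers summed to 4.09 to 7.21 CPM in 2H-11 and 3.51 to 9.37 CPM in SVEC4-10. Among all Ensembl genes tested, 13% were called higher in 2H-11 and 18.8% lower. Egfl7, Pdgfrb, Thy1, Cspg4 and Krt19 reached the filter for testing, about 2.07 CPM in 3 libraries, in 2H-11 libraries alone. Upk1b, Upk3b and Gpm6a reached it in SVEC4-10 libraries alone. Such genes had to differ to be tested, so nothing is read from the share of markers called. The part of these markers in the results that follow was not tested, and a smaller number of cells of one kind cannot be told apart from less RNA per cell.

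All 10 members had a count in at least 1 library, and 9 had enough to be tested. Of these, 3 were higher in 2H-11 (Mmp2, Mmp19 and Timp1), 3 were lower (Mmp10, Mmp13 and Timp3) and 3 did not pass the threshold (Mmp3, Mmp14 and Timp2). The test was edgeR's quasi-likelihood test with a Benjamini-Hochberg adjusted p under 0.05 over all 13187 genes tested. Over the whole table the share called higher was 20.1% and the share called lower 16.2%, together 36.2%. The members all carry Ensembl identifiers, and among the 10149 Ensembl genes of the same fit 13% were called higher and 18.8% lower, together 31.8%. The libraries of the 2 lines did not overlap in CPM for 5 of the 9 members, with Mmp2 and Timp1 above and Mmp10, Mmp13 and Timp3 below. Among all genes tested 46.8% did not overlap, 28% with 2H-11 above and 18.8% with it below. For the Ensembl genes these shares were 43.4%, 21.3% and 22.1%. The filter on low counts asked for about 2.07 CPM in 3 libraries. Mmp2 reached this in 2H-11 libraries alone, and Mmp10 and Mmp13 in SVEC4-10 libraries alone, so their presence among the tested genes already required a difference, and nothing is read from the share of members called.

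**Figure D1:**
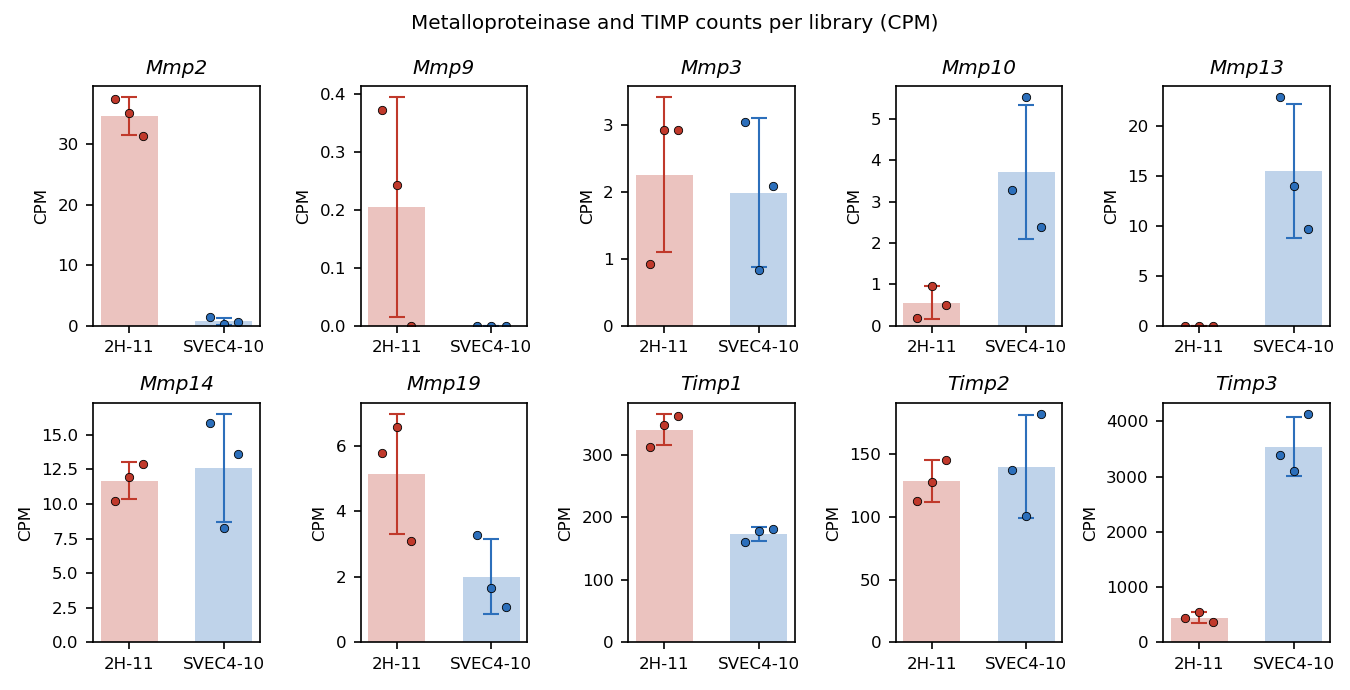
Counts of the 10 members in CPM, 1 panel per gene with its own linear axis from 0. Bars are means and error bars SDs over the 3 libraries, points are single libraries, with 2H-11 left of SVEC4-10. Mmp2 and Timp1 stand higher and Mmp10, Mmp13 and Timp3 lower in every 2H-11 library than in any SVEC4-10 library.

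The gelatinases MMP2 and MMP9 cut denatured collagen and the type IV collagen of basement membranes. Mmp2 (ENSMUSG00000031740, GRCm38 chromosome 8, 92827291 to 92853420, plus strand) was at 37.4, 35.1 and 31.2 CPM in 2H-11, against 1.40, 0.276 and 0.655 in SVEC4-10. Every 2H-11 library lay far above every SVEC4-10 library. The counts behind these levels were 201, 144 and 182 in 2H-11 and 6, 1 and 11 in SVEC4-10, and the gene was 42.6-fold higher in 2H-11 (log2 fold change 5.41, SE 0.35, adjusted p = 7.77e-10). Mmp9, the second gelatinase (ENSMUSG00000017737, chromosome 2, 164940780 to 164955850), had 2, 1 and 0 counts in 2H-11 and no count in SVEC4-10. It was too rare to be tested, and both lines were at or under the limit of 3 counts, so no fold is given.

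Mmp13, Mmp3 and Mmp10 lie in one stretch of chromosome 9 that holds 10 metalloproteinase genes over 427 kb (7272514 to 7699585). MMP13 is a collagenase that cuts fibrillar collagen, and MMP3 and MMP10 are stromelysins with a broad range of matrix substrates. Mmp13 (ENSMUSG00000050578, 7272514 to 7283331) had no count in any 2H-11 library, against 98, 51 and 163 counts in SVEC4-10, or 22.9, 14.1 and 9.70 CPM. It was at least 79.4-fold lower in 2H-11, setting mean SVEC4-10 CPM against 3 counts over the 2H-11 libraries as the limit (adjusted p = 9.99e-08). Without 2H-11 replicate 1, 2 or 3 that bound was 51.5, 58.1 or 49.2, since the limit then rests on fewer total counts. Without SVEC4-10 replicate 1, 2 or 3 the bound was 60.6, 83.2 or 94.3, since the mean SVEC4-10 level then moved. Mmp10 (ENSMUSG00000047562, 7502352 to 7510240) was at 0.186, 0.974 and 0.515 CPM in 2H-11, against 3.27, 5.51 and 2.38 in SVEC4-10. The groups did not overlap, on 8 counts in 2H-11 and 74 in SVEC4-10, and Mmp10 was 6.80-fold lower in 2H-11 (log2 fold change -2.77, SE 0.57, adjusted p = 0.000788). Mmp3 (ENSMUSG00000043613, 7445822 to 7455975), which lies between the other two, was at 0.930, 2.92 and 2.92 CPM in 2H-11, against 3.04, 0.827 and 2.08 in SVEC4-10. The libraries were mixed, and the gene did not pass the threshold (log2 fold change 0.05, 95% interval -0.96 to 1.07, adjusted p = 0.946), an interval that spans a change of about 2-fold either way. The other 7 genes of the stretch were at or near 0: Mmp12, Mmp8 and Mmp27 had 2, 1 and 3 counts in SVEC4-10 and none in 2H-11, and Mmp1a, Mmp1b, Mmp20 and Mmp7 had none in either line. Coding sequences of Mmp3 and Mmp10 were 80.5% identical over 1417 aligned bases, while other pairs of the 7 metalloproteinases were 63.1% to 69.3% identical, so reads of Mmp3 and Mmp10 may have been shared between them by the authors' counting.

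**Figure D2:**
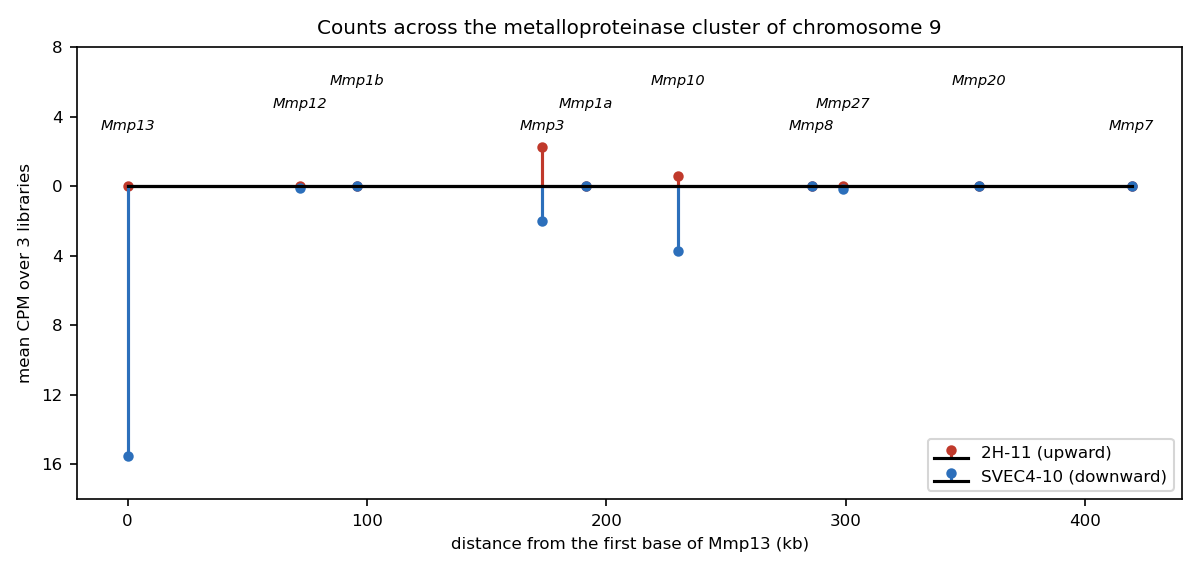
Mean CPM over 3 libraries for the 10 genes of the chromosome 9 stretch, placed by distance in kb from the first base of Mmp13, with 2H-11 drawn upward and SVEC4-10 downward. Mmp13 and Mmp10 stand lower in 2H-11, Mmp3 is at 2.26 CPM in 2H-11, against 1.98 in SVEC4-10, and the other 7 genes lie near 0 in both.

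The upstream sequences of these 3 neighbours are shown because they lie close together and yet differed in how their counts compared between the lines. Each is the 250 bases before the RefSeq start on GRCm38.p6, plus strand, 5′ to 3′, and capitals mark the AP-1 motif TGANTCA, the letters bound by Fos and Jun proteins. The regions are chr9:7272264-7272513 for Mmp13, chr9:7445572-7445821 for Mmp3 and chr9:7502092-7502341 for Mmp10.
Mmp13: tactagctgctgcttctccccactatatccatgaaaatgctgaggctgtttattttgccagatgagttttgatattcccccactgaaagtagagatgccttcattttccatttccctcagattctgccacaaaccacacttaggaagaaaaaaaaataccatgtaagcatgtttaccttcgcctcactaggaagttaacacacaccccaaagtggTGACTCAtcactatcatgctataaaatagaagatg
Mmp3: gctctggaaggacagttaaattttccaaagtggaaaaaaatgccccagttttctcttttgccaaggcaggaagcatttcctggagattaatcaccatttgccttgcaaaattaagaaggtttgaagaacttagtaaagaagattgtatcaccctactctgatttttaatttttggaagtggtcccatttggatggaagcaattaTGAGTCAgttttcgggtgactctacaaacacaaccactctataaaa
Mmp10: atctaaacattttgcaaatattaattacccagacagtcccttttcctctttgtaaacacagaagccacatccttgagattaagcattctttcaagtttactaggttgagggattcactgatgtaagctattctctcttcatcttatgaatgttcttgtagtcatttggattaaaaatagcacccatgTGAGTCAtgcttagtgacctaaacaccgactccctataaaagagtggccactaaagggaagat
All 3 held 1 match to TGANTCA, at positions -35 to -29 in Mmp13, -46 to -40 in Mmp3 and -63 to -57 in Mmp10, counted back from the start. The Mmp13 match reads TGACTCA, and those of Mmp3 and Mmp10 read TGAGTCA, which is the same site read on the other strand. No such match was found for the other 4 members with a window in the promoter set used (Mmp14, Timp1, Timp2 and Timp3). Of all 32851 promoter windows of this length 6.75% held one. All 3 also held TATAAA downstream of it, which 12.4% of all windows held on either strand. The Runx motif AACCACA was found in the Mmp13 window alone among the 7 (4.40% of all windows, both strands). AGGAAG, the letters of the PEA3 motif bound by Ets proteins, matched in Mmp13, Mmp3, Mmp14, Timp1 and Timp3 (29.5% of all windows, both strands), and no 2 of these matches overlapped. The AP-1 match was present at Mmp13 and Mmp10, lower in 2H-11, and at Mmp3, which did not pass the threshold. Timp3, also lower in 2H-11, had none. Mmp2, Mmp9 and Mmp19 had no window in the promoter set used and were not searched. These are matches of letters, and binding was not measured.

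MMP14 is the membrane-anchored collagenase that activates pro-MMP2, and MMP19 is a secreted enzyme that cuts basement membrane proteins. Mmp14 (ENSMUSG00000000957, chromosome 14, 54431612 to 54445364) was at 10.2, 11.9 and 12.9 CPM in 2H-11, against 15.9, 8.27 and 13.6 in SVEC4-10. The 2H-11 values lay inside the SVEC4-10 range, and the gene did not pass the threshold (log2 fold change -0.21, 95% interval -0.77 to 0.36, adjusted p = 0.591). Mmp19 (ENSMUSG00000025355, chromosome 10, 128790910 to 128800824) was at 5.77, 6.58 and 3.09 CPM in 2H-11, against 3.27, 1.65 and 1.07 in SVEC4-10. Replicate 3 of 2H-11 lay below replicate 1 of SVEC4-10, so the groups overlapped, and Mmp19 was 2.66-fold higher in 2H-11 (log2 fold change 1.41, SE 0.45, adjusted p = 0.0197). This call was lost without 2H-11 replicate 2 (adjusted p = 0.100), without SVEC4-10 replicate 2 (0.0608) and without SVEC4-10 replicate 3 (0.188), and the gene did not pass against a 2-fold change (0.355). Mmp19 overlaps Tmem198b on the opposite strand, which had 479 counts in 2H-11 and 714 in SVEC4-10, and reads of the pair cannot be told apart if strand was not used in counting.

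**Figure D3:**
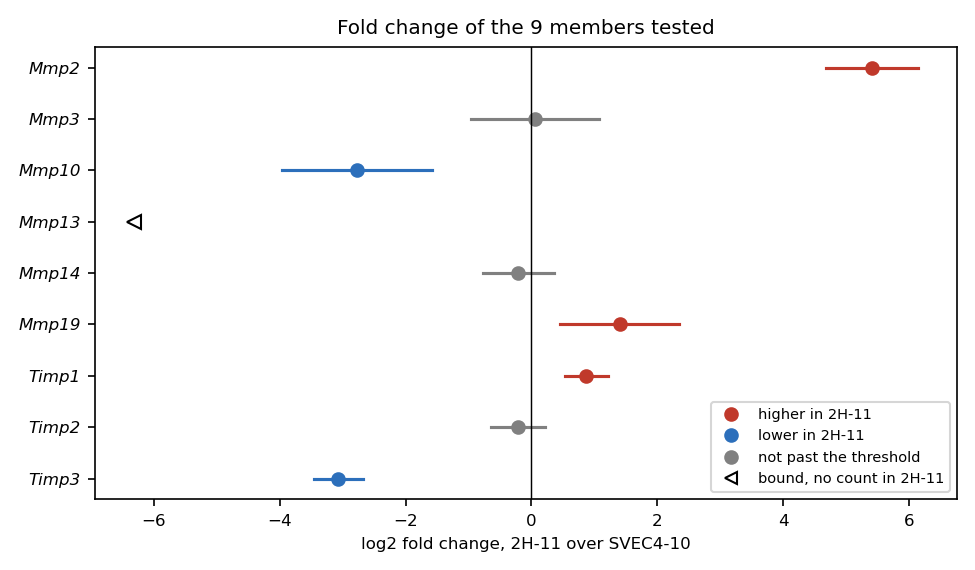
Log2 fold change, 2H-11 over SVEC4-10, of the 9 members tested, with 95% intervals from the fit as lines. Red members were higher and blue lower in 2H-11, grey ones did not pass the threshold, and the open triangle is the bound for Mmp13, at least 79.4-fold lower. The intervals of Mmp3, Mmp14 and Timp2 cross 0.

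The 3 inhibitors went different ways. TIMP1 is a secreted inhibitor of most soluble metalloproteinases. Timp1 (ENSMUSG00000001131, chromosome X, 20870166 to 20874735) was at 312, 347 and 361 CPM in 2H-11, against 161, 178 and 182 in SVEC4-10. All 3 libraries of 2H-11 lay above all 3 of SVEC4-10, a 1.83-fold difference (log2 fold change 0.87, SE 0.16, adjusted p = 0.000376), which did not pass when tested against a 2-fold change (adjusted p = 1). TIMP2 inhibits MMP2 and also takes part in its activation by MMP14. Timp2 (ENSMUSG00000017466, chromosome 11, 118301069 to 118355740, minus strand) was at 113, 128 and 146 CPM in 2H-11, against 138, 101 and 182 in SVEC4-10. The 2H-11 values lay within the wider SVEC4-10 range, and the gene did not pass the threshold (log2 fold change -0.22, 95% interval -0.64 to 0.21, adjusted p = 0.447). TIMP3 is the inhibitor that binds to the matrix, and it also inhibits several ADAM and ADAMTS enzymes. Timp3 (ENSMUSG00000020044, chromosome 10, 86300372 to 86349506) was at 436, 553 and 362 CPM in 2H-11, against 3392, 3100 and 4132 in SVEC4-10. The highest 2H-11 library was far below the lowest SVEC4-10 library, and Timp3 was 8.41-fold lower in 2H-11 (log2 fold change -3.07, SE 0.18, adjusted p = 3.5e-10). Timp1 overlaps Syn1 and Timp3 overlaps Syn3, both on the opposite strand. Syn1 had 2 counts in each line and Syn3 had 1 in 2H-11 and 0 in SVEC4-10, far fewer than the TIMP genes themselves. Timp2 overlaps Cep295nl on the same strand, which had 8 counts in 2H-11 and 7 in SVEC4-10.

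The make-up of both families differed between the lines, as given here without a test. Mmp2 made up 68.1%, 60.8% and 61.7% of the counts of the 7 metalloproteinases in 2H-11, against 2.82%, 0.901% and 2.22% in SVEC4-10. Mmp13 made up 0% in every 2H-11 library, with an upper exact binomial 95% limit of 1.24% to 1.54%, against 46.0%, 45.95% and 32.9% in SVEC4-10. Mmp14 took 21.6% ± 3.48 in 2H-11 and 35.0% ± 9.94 in SVEC4-10. Among these 7, Mmp2 thus held the largest share of counts in each 2H-11 library, while Mmp13 did so in SVEC4-10 replicates 1 and 2 and Mmp14 in replicate 3. Among TIMP counts, Timp3 made up 50.7%, 53.8% and 41.7% in 2H-11, against 91.9%, 91.75% and 91.9% in SVEC4-10. Timp1 made up 37.2% ± 3.99 of TIMP counts in 2H-11 and 4.56% ± 0.642 in SVEC4-10. There were 1.40, 1.60 and 1.00 Timp3 counts per Timp1 count in 2H-11, against 21.1, 17.4 and 22.7 in SVEC4-10.

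Summed over the 7 genes, metalloproteinase RNA stood at 54.9, 57.7 and 50.6 CPM in 2H-11, against 49.8, 30.6 and 29.5 in SVEC4-10. The sums did not overlap, but 2H-11 replicate 3 and SVEC4-10 replicate 1 lay close together. The sum over the 3 TIMPs was 861, 1028 and 868 CPM in 2H-11, against 3690, 3379 and 4496 in SVEC4-10. With Timp3 left aside, Timp1 and Timp2 together stood at 468 ± 41.1 CPM in 2H-11, against 314 ± 44.5 in SVEC4-10, so the lower TIMP sum of 2H-11 rested on Timp3. Metalloproteinases made up 5.61% ± 0.348 of all counts of the 10 genes in 2H-11 and 0.960% ± 0.344 in SVEC4-10. With counts divided by transcript length, a step that direct RNA counts do not need, these shares were 3.54% in 2H-11 and 1.51% in SVEC4-10. Put as a ratio, 16.9 ± 1.09 TIMP counts stood against 1 metalloproteinase count in 2H-11 and 112 ± 39.1 in SVEC4-10. By mean CPM, Timp1 and Timp2 together were 1.493 times as high in 2H-11 as in SVEC4-10. The metalloproteinase sum was 1.485 times as high, so the differences in count share and ratio also rested on Timp3. These ratios are of RNA counts and do not measure enzyme activity. Sums, shares and ratios over the 10 members leave out 17 further MMP and TIMP genes, Mmp11 and Mmp23 among them. Those genes summed to 43.4 to 48.0 CPM in 2H-11 and 7.17 to 23.1 CPM in SVEC4-10.

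**Figure D4:**
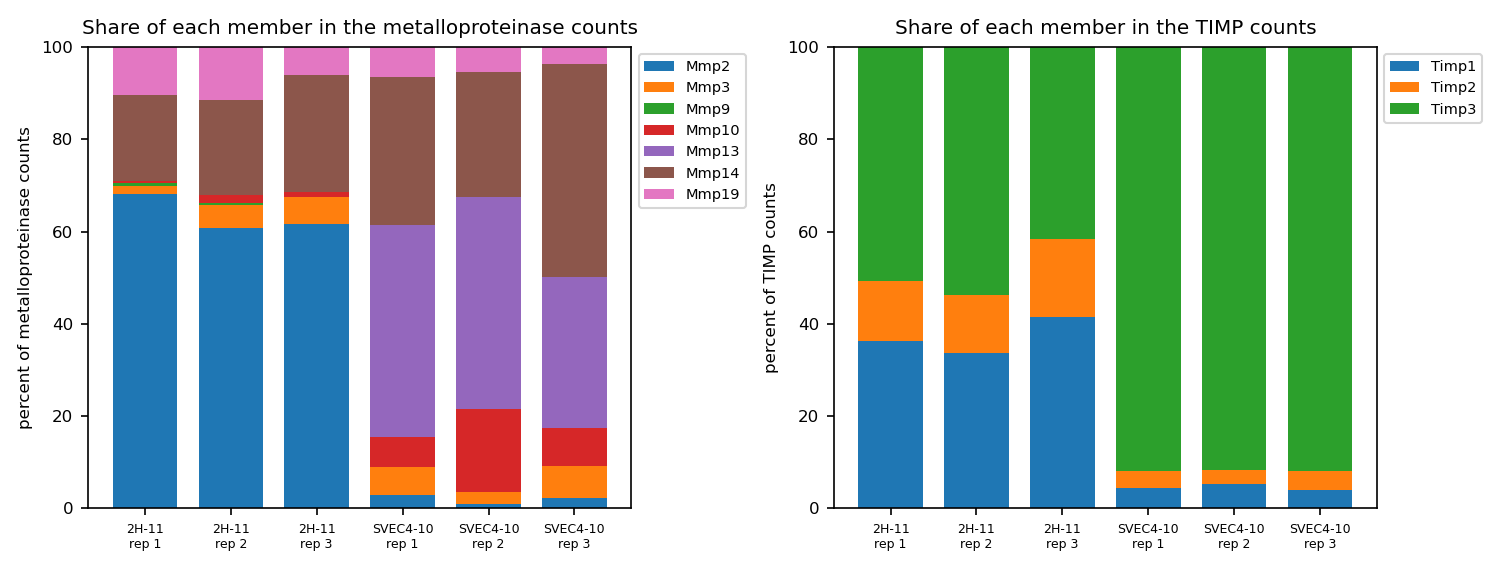
Percent of the counts of the 7 metalloproteinases (left) and of the 3 TIMPs (right) that each member holds, 1 stacked bar per library, with 2H-11 left of SVEC4-10. Mmp2 holds 60.8% to 68.1% of metalloproteinase counts in 2H-11, and Timp3 holds 41.7% to 53.8% of TIMP counts in 2H-11 and 91.75% to 91.9% in SVEC4-10.

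Levels of different genes were also ranked per kb of the main annotated transcript. On this scale Timp1 was the highest member in 2H-11, at 385 ± 28.3 CPM per kb, followed by Timp3 at 95.4 ± 20.4, Timp2 at 34.7 ± 4.45, Mmp2 at 11.2 ± 1.01 and Mmp14 at 4.50 ± 0.516. None of these neighbours overlapped in their libraries, whereas Mmp14 was followed by Mmp19 (1.51 ± 0.536), Mmp3 (1.25 ± 0.638), Mmp10 (0.324 ± 0.230), Mmp9 and Mmp13, each of which overlapped the next. In SVEC4-10 the order began with Timp3 at 750 ± 113 CPM per kb, Timp1 at 197 ± 12.7 and Timp2 at 37.8 (libraries 27.1 to 49.1), which did not overlap. Then came Mmp13 at 5.82 ± 2.52, Mmp14 at 4.85 ± 1.51, Mmp10 at 2.16 ± 0.937, Mmp3 at 1.10 ± 0.616, Mmp19 at 0.588 ± 0.335 and Mmp2 at 0.253 ± 0.186, each overlapping the next. Mmp9 came last, at 0. Timp1 has a transcript of 883 bases and Timp3 one of 4722 bases, and in undivided CPM Timp3 stood above Timp1 in 2H-11 replicates 1 and 2, while replicate 3 had nearly equal levels of both. A direct RNA read stands for 1 molecule whatever its length, so comparing genes in undivided CPM needs no division by length. Mean CPM in 2H-11 was 451 for Timp3 and 340 for Timp1, and Timp1 ranked above Timp3 there only per kb.

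Other genes of the pathway, all with Ensembl identifiers, were counted in 5 lists. Of the Ensembl genes tested 13% were called higher and 18.8% lower, and their median log2 fold change was -0.10. A gene that reached the filter of about 2.07 CPM in 1 line alone had to differ to be tested at all, so the counts of calls describe these genes and give no direction for a list. Outside the 10 members, 17 further MMP and TIMP genes were listed, of which 6 had no count in any library and 2 could be tested. Both were called higher in 2H-11, Mmp23 having reached the filter in 2H-11 libraries alone. Mmp23, a membrane-anchored metalloproteinase, was at 14.9, 14.9 and 20.2 CPM in 2H-11, against 0.234, 0 and 0.179 in SVEC4-10 (88.1-fold, adjusted p = 5.22e-09). Without SVEC4-10 replicate 3 it had 1 count left in that line, a ratio of 133.8 with counting limits (95%) of 23.8 and 5305. Mmp11, stromelysin 3, was at 28.5, 26.6 and 19.7 CPM in 2H-11, against 19.6, 5.24 and 8.69 in SVEC4-10 (2.13-fold, adjusted p = 0.0125). Its call was lost without SVEC4-10 replicate 2 (adjusted p = 0.0701) or replicate 3 (0.0876), and the list then had 1 higher member without replicate 3.

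Genes that activate metalloproteinases or otherwise control them held 3 called higher and 5 called lower among 13 tested in a list of 18 (median log2 fold change 0.34). Of these, 1 of the 3 (Serpine2) and 2 of the 5 (Pcsk5 and Pcsk6) reached the filter in their high line alone. Without SVEC4-10 replicate 1 or 2, 6 or 5 were higher. Among proprotein convertases, which cut propeptides, Pcsk6 had 3 counts in 2H-11 against 447 in SVEC4-10. By each line's summed counts over its summed library totals it was 92.3-fold lower (95% counting limits 31.4 and 449, adjusted p = 2.68e-09). Pcsk5 had no count in 2H-11 against 7.31 ± 1.40 CPM in SVEC4-10, at least 37.3-fold lower (adjusted p = 4.4e-07), or at least 24.2 or 23.1-fold with 2H-11 replicate 1 or 3 left out. Plaur, the urokinase receptor, was 2.92-fold lower, at 60.9 ± 4.39 CPM in 2H-11, against 166 ± 10.6 in SVEC4-10 (adjusted p = 1.25e-06). Bsg, which encodes a surface protein known to induce metalloproteinases in neighbouring cells, was 1.97-fold lower, at 270 ± 47.7 CPM in 2H-11, against 499 ± 97.8 in SVEC4-10 (adjusted p = 0.000392). Serpine2, an inhibitor of thrombin and plasminogen activators, had 246 counts in 2H-11 against 1 in SVEC4-10. By summed counts over summed library totals it was 397-fold higher (95% counting limits 70.6 and 15750, adjusted p = 1.55e-09). The 1 SVEC4-10 count was in replicate 3, without which the bound was at least 42.6-fold. Cd44, a hyaluronan receptor that can hold metalloproteinases at the surface, was 2.30-fold higher, at 105.5 ± 12.7 CPM in 2H-11, against 42.7 ± 15.9 in SVEC4-10 (adjusted p = 0.000722). Plau, urokinase, was 2.79-fold higher, at 8.47 ± 0.995 CPM in 2H-11, against 3.01 ± 0.982 in SVEC4-10 (adjusted p = 0.00235).

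ADAM and ADAMTS enzymes, relatives some of which TIMP3 inhibits, had 6 higher and 3 lower of 14 tested in a list of 23 (median log2 fold change 0.57). Of these, 4 of the 6 (Adam8, Adamts2, Adamts4 and Adamts6) and 1 of the 3 (Adamts9) reached the filter in their high line alone. Adam8 was 9.46-fold higher, at 9.94 ± 0.735 CPM in 2H-11, against 0.872 ± 0.295 in SVEC4-10 (adjusted p = 1.5e-06). Adamts4, an aggrecanase, had 64 counts in 2H-11 against 2 in SVEC4-10. By summed counts over summed library totals it was 51.65-fold higher (95% counting limits 13.7 and 436, adjusted p = 1.53e-05). Both SVEC4-10 counts were in replicate 1, and the bound without it was 27.9, while the ratio without SVEC4-10 replicate 3 was 16.5 (4.39 to 139). Adam19 was 4.605-fold higher (adjusted p = 2.51e-05) and Adamts10 3.57-fold higher (adjusted p = 2.87e-05). Adam9 was 2.66-fold lower (adjusted p = 7.98e-06) and Adamts9 4.11-fold lower (adjusted p = 0.00131). Adam10, a sheddase of surface proteins, was 1.53-fold lower (adjusted p = 0.0471). It did not pass once 2H-11 replicate 2 (adjusted p = 0.116) or 3 (0.163), or SVEC4-10 replicate 1 (0.116) or 3 (0.0717), was left out.

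Of 8 other matrix-degrading enzymes 4 were tested, with a median log2 fold change of 0.15. Ctsl, the protease cathepsin L, was 3.29-fold lower, at 767 ± 75.4 CPM in 2H-11, against 2360 ± 134 in SVEC4-10 (adjusted p = 4.93e-08). A second member passed, upward, without 2H-11 replicate 3 and without SVEC4-10 replicate 1 or 2. Among 10 AP-1, ETS and RUNX factors known to act on metalloproteinase promoters, 9 were tested, and 2 were higher and 1 lower (median log2 fold change 0.46), none of which had reached the filter in 1 line alone. Fosl1, the AP-1 protein Fra-1, was 7.99-fold higher, at 18.1 ± 3.03 CPM in 2H-11, against 1.74 ± 1.32 in SVEC4-10 (adjusted p = 5.58e-06). Without SVEC4-10 replicate 3 it was 15.8-fold higher. Fosl2, Fra-2, was 2.11-fold lower, at 8.97 ± 2.53 CPM in 2H-11, against 17.9 ± 4.45 in SVEC4-10 (adjusted p = 0.00475). Ets1 was 1.52-fold higher (adjusted p = 0.0480), and did not pass once 2H-11 replicate 1 (adjusted p = 0.115) or 2 (0.176), or SVEC4-10 replicate 1 (0.226) or 2 (0.159), was left out.

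**Figure D5:**
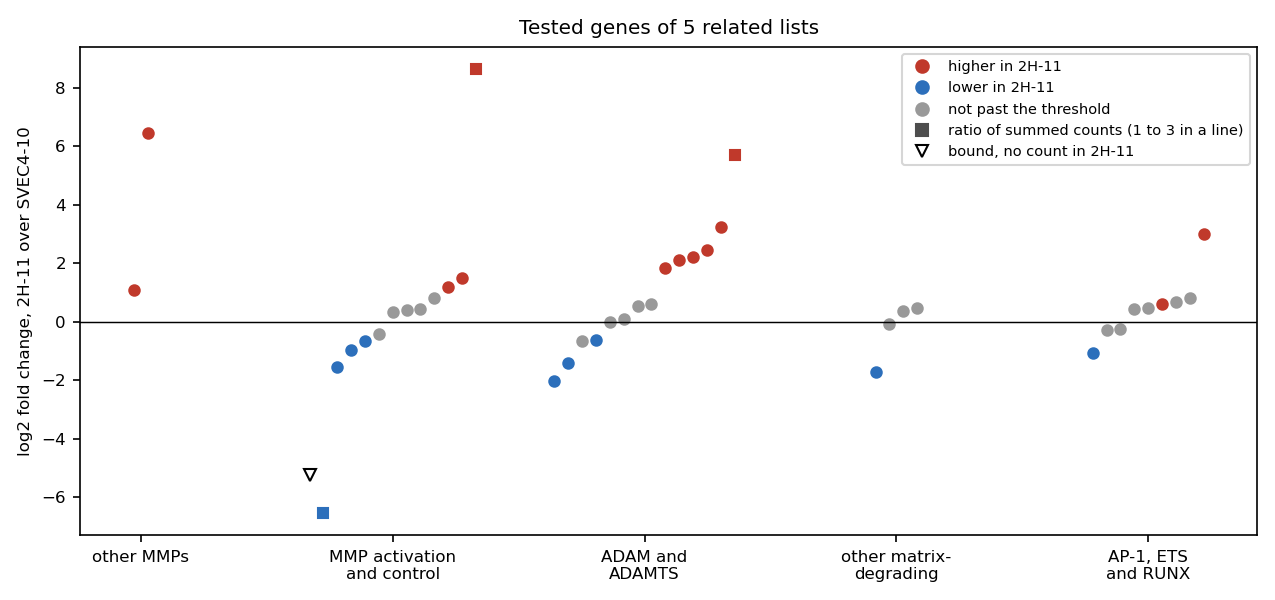
Log2 fold change, 2H-11 over SVEC4-10, of the tested genes of 5 related lists, in order of size within a list. Red genes were higher and blue lower in 2H-11, grey ones did not pass the threshold, squares are ratios of summed counts and the open triangle is the bound for Pcsk5. Genes past the threshold lie on both sides of 0 in the lists of activation and control, of ADAM and ADAMTS enzymes, and of promoter factors.

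Finally, the genes with count profiles nearest to those of Mmp2 and Timp3, the members with the smallest p upward and downward, were looked up. Likeness was the root mean square difference of log2(CPM + 0.5) over the 6 libraries, each profile centred on its own mean. Among 6774 candidate genes at 10 CPM or more in 2H-11, the nearest to Mmp2 were C1qtnf6 (difference 0.186), Ctsc (0.222) and Krt19 (0.227), the last also in the mesothelial list. C1qtnf6 was at 48.5 ± 2.51 CPM in 2H-11, against 1.51 ± 1.12 in SVEC4-10. Among 6791 candidates at 10 CPM or more in SVEC4-10, the nearest to Timp3 were Rnf213 (0.185), Baiap2l1 (0.223) and Gcnt2 (0.224). Rnf213 was at 19.1 ± 1.82 CPM in 2H-11, against 146 ± 40.6 in SVEC4-10. With 2 lines, a small difference means a like contrast between the lines and a like spread within them on this scale. The added 0.5 shrinks contrasts of genes near 0 CPM in 1 line, so fitted folds can differ. Krt19 was 113-fold higher in 2H-11, against 42.6-fold for Mmp2.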

How the data were processed

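Direct RNA sequencing was applied to 3 libraries each of 2H-11 and SVEC4-10. Per the labels' protocols, Trizol RNA entered the Oxford Nanopore kit SQK-RNA002, and the submitters' processing notes name builds mm10 and GRCm38. No source used here names the aligner, the counter, its annotation or whether strand was used. The authors deposited whole-number read counts for each gene, and per the file headers the same values as CPM, which equal each count over its library total. In all, 13 broken lines naming no gene were left out.

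Counts were tested with edgeR 4.0.16 (R 4.3.3): filterByExpr (minimum count 10, minimum total 15), TMM scaling, the quasi-likelihood test with line as its only term, and Benjamini-Hochberg adjustment. The standard error is the log2 fold change over the root of F, and 95% intervals use the fit's degrees of freedom. Replicates varied by 20.2% (biological coefficient of variation). Alternatives used DESeq2 1.42.0, limma-voom (limma 3.58.1), other scalings, filters and gene sets, thinning, a replicate block, and each library left out. Limits and intervals cover counting error only.

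Positions and transcript lengths came from GENCODE M21 (GRCm38), which held 22022 of 22036 Ensembl identifiers. Coding sequences were aligned with Biopython 1.88. Promoters came from a set of windows at RefSeq starts (GRCm38.p6) that held 7 of the 10 members. All members are named, with up to 4 genes per list and direction by smallest p. Members and lists were chosen with earlier results of these data known.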

Additional observations from a re-analysis of the deposited data

How the results depend on the processing

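Mmp2, Timp3 and, where it could be fitted, Mmp10 kept direction and call under every alternative run (log2 fold change 5.13 to 5.72, -3.25 to -2.96 and -3.34 to -2.34), as did Mmp13. Mmp10 and Mmp3 could not be fitted with 20 counts in 3 libraries or after thinning, nor Mmp19 with 20 counts in 3 libraries. With a 2-fold change as the null, 1134 genes passed upward and 671 downward, 1 member (Mmp2) passed upward, and 15 genes of the related lists passed, against 23. A fit of Ensembl genes alone gave 1657 higher and 1631 lower, against 2645 and 2133 over all identifiers and 1319 and 1907 for the Ensembl genes of that fit. Per kb of transcript, a scale that direct RNA counts do not need, metalloproteinases made up 3.54% of the 10 members in 2H-11 and 1.51% in SVEC4-10. The direction of Mmp3 turned with limma-voom (-0.04), with no filter (-0.03), without 2H-11 replicates 2 (-0.14) and 3 (-0.25), and without SVEC4-10 replicate 2 (-0.24), within -0.25 to 0.42 over single libraries left out. The cause was not tested.

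Leaving out single libraries gave 2281 to 2929 genes higher and 1754 to 2220 lower, 2 to 3 members higher and 3 lower, 22 to 27 genes of the related lists, and shares of 5.41% to 5.75% (2H-11) and 0.775% to 1.11% (SVEC4-10). Adam10 was also lost with library size alone, the stricter filter and Ensembl genes only, and Ets1 with DESeq2, limma-voom, no filter and the block. The labels link same-numbered libraries by number alone. Correlations of their deviations from the line means were -0.066, 0.051 and -0.004, and those of other pairs -0.118 to 0.127. Such values cannot exclude a shared culture or run. A replicate block gave 2491 genes higher and 1970 lower, 3 members higher and 3 lower, and 21 of the related lists. Low counts limit what can be said of Mmp9, Mmp3 and Mmp10.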
